A study of Mus musculus with 8 samples.

Results

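Macrophage marker genes were followed in mouse skin with and without CD109, a glycoprotein of the cell surface. The members were 10 genes chosen by name: *Cd14*, *Cd68*, *Msr1*, *Ms4a7*, *Csf1r*, *Mrc1*, *Cd163*, *C1qa*, *C1qb* and *C1qc*. Every probe whose RefSeq accession mapped to one of them was taken, which gave 13 of the 55681 probes on the array, and all 10 genes were among the 16769 named genes that could be tested. All 13 probes were well above background and none was saturated on any of the 8 arrays. Signal was measured in whole skin of female mice, all on the FVB/N background, which *CD109-/-* mice carry after backcrossing and *CD109+/+* mice as a purchased wild-type strain. The groups were *CD109-/-* skin 24 h after application of the carcinogen dimethylbenz[a]anthracene (DMBA), *CD109+/+* skin 24 h after DMBA, untreated *CD109-/-* skin and untreated *CD109+/+* skin, with 2 arrays each. The untreated samples are described by their labels both as untreated and as given acetone, the solvent, and the age of the mice and whether the 2 arrays of a group came from separate mice are not in the labels. *CD109-/-* mice lack the gene in all tissues, not in macrophages alone. Since separate mice are not stated, the p-values rest on how far these arrays spread, which may be technical, and 2 arrays a group limit the precision.

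Macrophages of the dermis are phagocytes that arise from embryonic precursors and from blood monocytes. They depend on the CSF1 receptor for survival, recognise microbes and dead cells through pattern recognition and scavenger receptors, degrade what they take up in lysosomes, and secrete C1q, the recognition subunit of the classical complement pathway. The 10 genes cover these roles: *Cd14* is the co-receptor for lipopolysaccharide, *Cd68* a lysosomal glycoprotein, *Csf1r* the CSF1 receptor, *Msr1*, *Mrc1* and *Cd163* the scavenger receptor A, the mannose receptor and the haemoglobin scavenger receptor, and *C1qa*, *C1qb* and *C1qc* the chains of C1q. *Ms4a7* encodes a membrane protein with several membrane spans that is made mainly by macrophages. In a sample of whole skin, fewer macrophages and less RNA per macrophage cannot be told apart.

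The promoters of 4 members are shown: *Cd68*, *Mrc1* and, of the chains of C1q, *C1qb* and *C1qc*. The signals of these genes moved together in the results that follow. All 4 promoters hold the first string marked, so they do not stand for the promoters of all members. Each runs from 250 bases before to 50 bases after the gene's start and is read 5′ to 3′ on the gene's strand, from RefSeq with the GRCm38.p6 build. Capitals mark GAGGAA on either strand (TTCCTC when read on the other), a string within the sites of PU.1, the transcription factor that specifies macrophages, and in *Cd68* also TGANTCA, the string read by AP-1.
Cd68, chr11:69666121-69666420, minus strand: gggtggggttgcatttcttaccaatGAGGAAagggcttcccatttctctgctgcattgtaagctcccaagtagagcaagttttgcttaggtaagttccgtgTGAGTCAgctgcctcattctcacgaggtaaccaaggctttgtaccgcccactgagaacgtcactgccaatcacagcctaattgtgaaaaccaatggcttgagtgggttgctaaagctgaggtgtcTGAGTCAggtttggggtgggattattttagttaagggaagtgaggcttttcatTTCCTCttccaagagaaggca
Mrc1, chr2:14229164-14229463, plus strand: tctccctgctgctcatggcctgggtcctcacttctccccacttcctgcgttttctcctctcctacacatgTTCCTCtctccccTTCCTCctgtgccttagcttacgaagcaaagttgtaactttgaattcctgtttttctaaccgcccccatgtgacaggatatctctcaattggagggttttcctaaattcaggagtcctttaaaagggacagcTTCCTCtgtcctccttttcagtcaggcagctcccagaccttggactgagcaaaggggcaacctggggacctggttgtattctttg
C1qb, chr4:136886151-136886450, minus strand: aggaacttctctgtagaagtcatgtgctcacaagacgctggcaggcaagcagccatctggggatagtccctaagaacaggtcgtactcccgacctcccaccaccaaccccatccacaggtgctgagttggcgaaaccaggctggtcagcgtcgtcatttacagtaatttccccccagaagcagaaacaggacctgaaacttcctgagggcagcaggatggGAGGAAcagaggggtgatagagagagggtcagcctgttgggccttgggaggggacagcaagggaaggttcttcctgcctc
C1qc, chr4:136892865-136893164, minus strand: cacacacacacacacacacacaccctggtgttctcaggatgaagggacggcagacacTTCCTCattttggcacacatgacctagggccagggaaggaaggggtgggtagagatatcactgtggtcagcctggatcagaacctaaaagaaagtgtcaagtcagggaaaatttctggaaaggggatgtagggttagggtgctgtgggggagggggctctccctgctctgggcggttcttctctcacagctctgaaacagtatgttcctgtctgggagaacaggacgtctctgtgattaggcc
The C1q genes lie side by side on chromosome 4, in the order *C1qb*, *C1qc* and *C1qa*, with *Ephb2* and *Epha8* on either side.

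Promoters of 6 of the 10 genes matched the table: the 4 printed and those of *Cd163* and *Ms4a7*. GAGGAA was found in 5 of the 6 genes, with 3 matches in *Mrc1*, 2 in *Cd68* and 1 each in *C1qb*, *C1qc* and *Ms4a7*. *Cd163*, whose promoter is not printed, had none. Counted by promoter, it was in 5 of the 7 listed for these genes, against 28.3% of all 32851 promoters of the same length. TGANTCA was found 2 times in *Cd68* and in 1 of the 2 listed promoters of *Ms4a7*, and in 7.81% of all promoters. In *Cd68* its matches began 149 and 24 bases before the gene's start, and in *Mrc1* the nearest GAGGAA match began 35 bases before it. Among other strings searched on both strands, the TATA box string TATAAA (13.6% of promoters) and the cyclic AMP response string TGACGTCA (1.79%) were in none of the 6 genes. The longer forms of the first string, GAGGAAGT (3.2% of promoters) and AGAGGAA (10.4%), were found in *C1qc*, and in *Cd68* and *Mrc1*. The shorter strings GGAA, which these longer forms contain, and CANNTG were in all 6 genes. Counted by promoter, they were in 7 and 6 of the 7 listed, with 96% and 72.3% of all promoters holding them. These matches describe the letters only.

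Signal is given as a log2 signal, the log2 of the ratio of a probe's intensity to the 75th percentile of its array, so that 0 is the 75th percentile and a difference of 1 is a doubling. A gene with several probes is given by its brightest tested probe. Values of different genes are not compared, since probes differ in brightness. The 75th percentile lay between an intensity of 382 and 626 on the 8 arrays and was lowest on the *CD109-/-* DMBA arrays (455 and 382), and 63.6% to 67.0% of spots were well above background. All arrays lay on 1 slide, with DMBA and untreated samples in different rows and the genotypes in different columns, so treatment and slide row, and genotype as labelled and slide column, cannot be told apart.

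*Cd109* went against the label on 2 untreated arrays. Its log2 signal was -8.06 and -7.70 on the *CD109-/-* DMBA arrays, neither well above background, and 0.84 and 1.42 on the *CD109+/+* DMBA arrays. On the arrays labelled *CD109-/-* untreated it was 1.66 and -8.11, and on those labelled *CD109+/+* untreated 2.06 and -6.49. The library labelled *CD109-/-* untreated replicate 1 therefore had *Cd109* signal, and the library labelled *CD109+/+* untreated replicate 2 had none well above background. Whether the deletion covers this probe is not given in the sources used here. Results are given with the labels as deposited, and those that rest on the untreated arrays also with these 2 arrays exchanged and without them. The exchange was read from the data, so a test after it is not independent evidence. The comparison of the genotypes after DMBA uses no untreated array for its fold change, and takes from them only part of the estimate of the spread.

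After DMBA, all 10 macrophage genes had a lower signal in *CD109-/-* skin, against *CD109+/+* skin, and for each of them both *CD109-/-* arrays lay below both *CD109+/+* arrays. The median log2 fold change of the 10 genes was -1.92, a 3.79-fold lower signal, against 0.00 over all tested genes. With the labels as deposited, 0 of the 10 genes passed an adjusted p under 0.05, and 0.0775% of all tested genes passed as lower in *CD109-/-*. An unadjusted p under 0.05 was reached by 10 of 10, against 11.9% of all tested genes in this direction, and 36.5% of all tested genes were lower without overlap. With the untreated arrays exchanged, 7 of the 10 genes passed as lower in *CD109-/-*, against 10.3% of all tested genes. The 3 that did not pass were the chains of C1q.

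**Figure D1:**
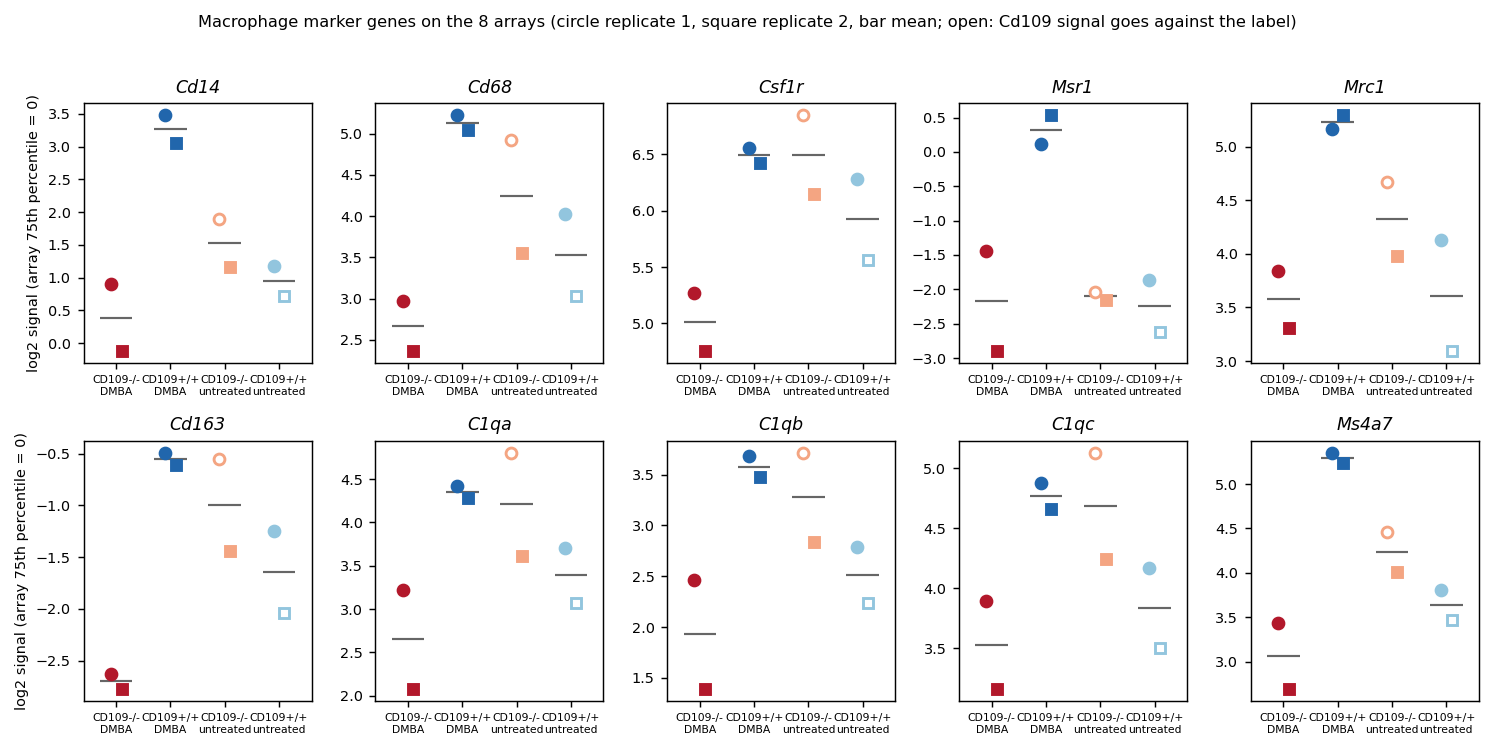
Log2 signal (vertical axis, 0 at the array's 75th percentile) of the 10 macrophage marker genes on the 8 arrays, with circles for replicate 1, squares for replicate 2, bars for the group mean and open symbols for the 2 arrays whose *Cd109* signal goes against the label. In every panel the *CD109-/-* DMBA arrays lie below the *CD109+/+* DMBA arrays, and in the *Msr1* panel the *CD109+/+* DMBA arrays, at 0.11 and 0.53, stand apart from the other 6, which lie between -2.90 and -1.45.

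*Cd14*, which hands lipopolysaccharide to TLR4, differed most between the genotypes after DMBA. Its log2 signal was 0.90 and -0.12 in *CD109-/-* skin, against 3.48 and 3.06 in *CD109+/+* skin. The log2 fold change was -2.88 ± 0.43 (SE, n = 2 arrays a group), a 7.35-fold lower signal, with an adjusted p of 0.0842 (limma) and 0.0202 with the untreated arrays exchanged. Untreated skin lay between, at 1.89 and 1.17 on the arrays labelled *CD109-/-* and 1.18 and 0.73 on those labelled *CD109+/+*. The *CD109+/+* DMBA arrays lay above all other 6, and *CD109-/-* DMBA replicate 1 lay within the range of the untreated arrays.

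*Cd68*, the lysosomal marker used to stain tissue macrophages, had a log2 signal of 2.98 and 2.37 in *CD109-/-* skin after DMBA, against 5.23 and 5.04 in *CD109+/+* skin. The log2 fold change was -2.46 ± 0.55 (SE), a 5.51-fold lower signal, with an adjusted p of 0.101, or 0.0212 after the exchange. Its untreated signal was 4.93 and 3.56 on the arrays labelled *CD109-/-* and 4.03 and 3.04 on those labelled *CD109+/+*. The *CD109-/-* DMBA arrays lay below all other 6 arrays and the *CD109+/+* DMBA arrays above all other 6.

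*Csf1r*, the receptor of CSF1 and interleukin-34 that macrophages need to survive, had a log2 signal of 5.27 and 4.76 in *CD109-/-* skin after DMBA, against 6.55 and 6.43 in *CD109+/+* skin. The log2 fold change was -1.48 ± 0.36 (SE), a 2.78-fold lower signal, with an adjusted p of 0.105, or 0.0309 after the exchange. Its other 2 probes gave -1.83 and -0.96, so the probes had the same direction and differed in size. Untreated skin had a signal of 6.85 and 6.14 on the arrays labelled *CD109-/-* and 6.28 and 5.56 on those labelled *CD109+/+*. Here the *CD109+/+* DMBA arrays lay within the range of the untreated arrays, and the *CD109-/-* DMBA arrays lay below all other 6.

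Of the genes of 3 growth factors for macrophages, 1 was lower in *CD109-/-* skin after DMBA without overlap, as were 36.5% of all tested genes. This was *Csf1*, whose product is the main CSF1 receptor ligand, with a log2 signal of 1.75 and 1.07 in *CD109-/-* skin after DMBA, against 2.09 and 2.35 in *CD109+/+* skin. Its log2 fold change was -0.81 ± 0.41 (SE; adjusted p = 0.259, or 0.0831 after the exchange). *Il34*, the ligand made by keratinocytes, had a signal of 1.57 and 0.94, against 1.18 and 1.49, differing by -0.08 ± 0.72 (SE; adjusted p = 0.950). *Csf2*, which encodes GM-CSF, had a signal of -2.77 and -4.23, against -3.42 and -2.77, differing by -0.41 ± 0.85 (SE; adjusted p = 0.770). The genotypes overlapped for both *Il34* and *Csf2*. *Csf2rb*, the common chain of the GM-CSF receptor carried by myeloid cells, had a signal of 1.75 and 1.40, against 3.16 and 3.22. Its log2 fold change was -1.62, with an adjusted p of 0.0998, or 0.0136 after the exchange, and that of *Csf2ra*, the chain that binds GM-CSF, was -1.18 with an adjusted p of 0.221.

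*Msr1*, the scavenger receptor that takes up modified lipoprotein, had a log2 signal of -1.45 and -2.90 in *CD109-/-* skin after DMBA, against 0.11 and 0.53 in *CD109+/+* skin. The log2 fold change was -2.49 ± 0.51 (SE), a 5.64-fold lower signal, with an adjusted p of 0.0998, or 0.0282 after the exchange. The second *Msr1* probe read -2.02 and -3.21 in *CD109-/-* skin, against -0.02 and 0.33 in *CD109+/+* skin, and gave a log2 fold change of -2.77. Untreated skin read -2.04 and -2.15 on the arrays labelled *CD109-/-* and -1.86 and -2.62 on those labelled *CD109+/+*. All 4 untreated arrays lay within the range of the *CD109-/-* DMBA arrays, so *Msr1* was set apart by the *CD109+/+* DMBA arrays alone. The size of its log2 fold change depended on the *CD109-/-* DMBA arrays, at -3.22 without replicate 1 and -1.77 without replicate 2.

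*Mrc1*, the mannose receptor of resident and alternatively activated macrophages, had a log2 signal of 3.84 and 3.31 in *CD109-/-* skin after DMBA, against 5.16 and 5.29 in *CD109+/+* skin. Its log2 fold change was -1.65 ± 0.42 (SE), a 3.14-fold lower signal, with an adjusted p of 0.107, or 0.0333 after the exchange. Untreated skin had a signal of 4.67 and 3.98 on the arrays labelled *CD109-/-* and 4.13 and 3.10 on those labelled *CD109+/+*. The *CD109+/+* DMBA arrays stood above all other 6, and the *CD109-/-* DMBA arrays overlapped the arrays labelled *CD109+/+* untreated.

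*Cd163*, the receptor that clears haemoglobin bound to haptoglobin, had a log2 signal of -2.63 and -2.77 in *CD109-/-* skin after DMBA, against -0.50 and -0.61 in *CD109+/+* skin. The log2 fold change was -2.15 ± 0.38 (SE), a 4.42-fold lower signal, with an adjusted p of 0.0909, or 0.0186 after the exchange, which was the smallest of the 10 genes after it. Untreated skin read -0.56 and -1.44 on the arrays labelled *CD109-/-* and -1.25 and -2.04 on those labelled *CD109+/+*. The *CD109-/-* DMBA arrays lay below all other 6 and close together.

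The fold changes of the 3 chains of C1q, which assemble into a single protein, were among the 5 smallest of the members. The log2 signal of *C1qa* was 3.22 and 2.08 in *CD109-/-* skin after DMBA, against 4.42 and 4.28 in *CD109+/+* skin, and that of *C1qb* was 2.47 and 1.39, against 3.68 and 3.48. For *C1qc* it was 3.89 and 3.16 in *CD109-/-* skin, against 4.88 and 4.66 in *CD109+/+* skin. Each chain was lower without overlap, by a log2 fold change of -1.70 ± 0.53 for *C1qa*, -1.65 ± 0.46 for *C1qb* and -1.25 ± 0.42 for *C1qc* (SE). The adjusted p was 0.132, 0.116 and 0.143, and 0.0605, 0.0551 and 0.0854 after the exchange. In untreated skin the array labelled *CD109-/-* replicate 1, one of the 2 in doubt, had the highest signal of all 8 arrays for each chain, at 4.80 for *C1qa*, 3.71 for *C1qb* and 5.13 for *C1qc*. The probe of *C1qc* is printed 10 times on the array and some of its spots were marked as outliers and left out of the average.

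*Ms4a7* had a log2 signal of 3.43 and 2.70 in *CD109-/-* skin after DMBA, against 5.35 and 5.24 in *CD109+/+* skin. The log2 fold change was -2.23 ± 0.31 (SE), a 4.69-fold lower signal, with an adjusted p of 0.0825, or 0.0221 after the exchange. Untreated skin had a signal of 4.45 and 4.01 on the arrays labelled *CD109-/-* and 3.81 and 3.47 on those labelled *CD109+/+*. Its SE was the smallest of the 10 genes, and all 4 untreated arrays lay between the genotypes of the DMBA arrays.

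**Figure D2:**
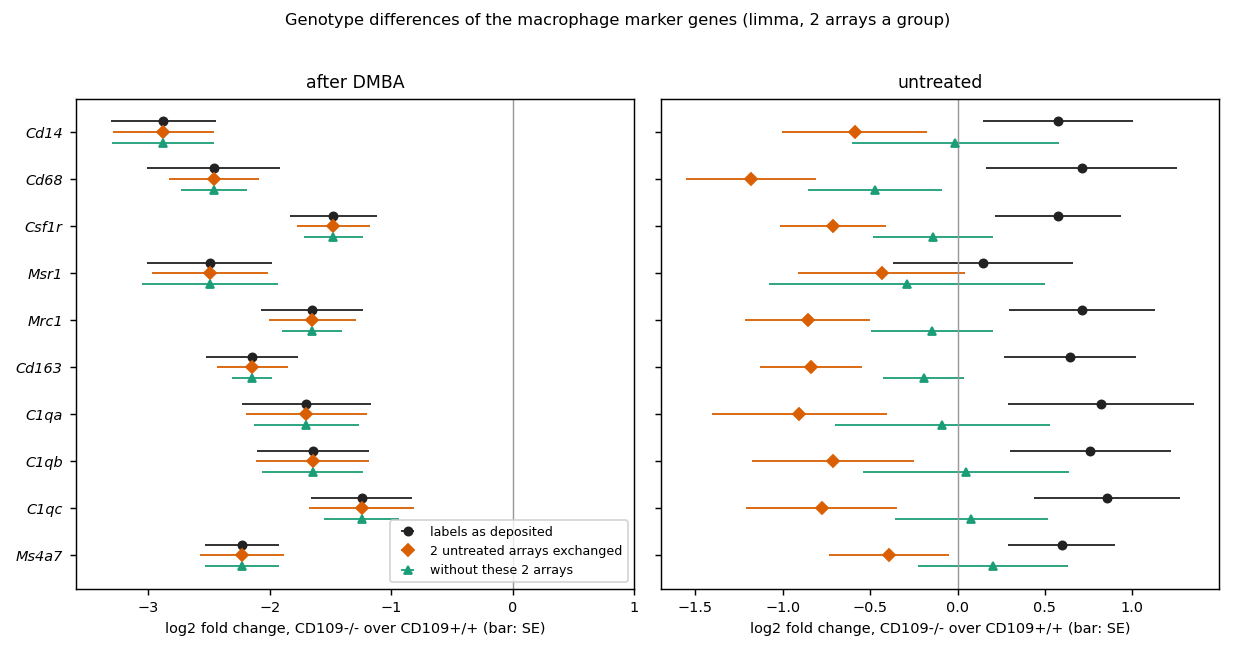
Log2 fold change of *CD109-/-* over *CD109+/+* skin (horizontal axis, bars for the SE) for each macrophage marker gene after DMBA (left) and untreated (right), with the labels as deposited, with the 2 untreated arrays in doubt exchanged and without these 2 arrays. After DMBA all estimates lie below 0, between -2.88 and -1.25, while in untreated skin they lie above 0 with the labels as deposited and below 0 after the exchange.

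Without the 2 arrays in doubt, the fold changes after DMBA were the same and 0 of the 10 genes passed, as did 0.0% of all tested genes in this direction, with adjusted p-values of 0.0827 for *Cd14* and 0.0781 for *Cd68*. The 7 calls made after the exchange also rested on single arrays. They became 0 when either *CD109+/+* DMBA array or *CD109-/-* DMBA replicate 2 was left out, with smallest adjusted p-values of 0.103 (*CD109+/+* replicate 1 left out), 0.0921 (*CD109+/+* replicate 2) and 0.0509 (*CD109-/-* replicate 2), where 0.129%, 0.246% and 1.38% of all tested genes passed as lower. They became 9 when *CD109-/-* DMBA replicate 1 was left out, against 19.0% of all tested genes. Leaving out an untreated array gave 5 and 6 for those labelled *CD109-/-* (replicates 1 and 2), against 4.18% and 3.12% of all tested genes, and 4 and 6 for those labelled *CD109+/+*, against 3.86% and 3.73%. The number of members that passed thus moved together with the share over all genes when a DMBA array was left out. The median fold change of the 10 genes lay between -2.24 and -1.58 over these settings.

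In untreated skin, where the comparison asks whether the genes differ between the genotypes before the carcinogen, the direction depended on the 2 arrays in doubt. With the labels as deposited, 10 of 10 genes had a higher mean signal in *CD109-/-* skin, with a median log2 fold change of 0.68, none passed (adjusted p of 1.00 for each of the 10) and 0 reached an unadjusted p under 0.05, where 0.0% and 0.608% of all tested genes did in this direction. Signals did not overlap between the genotypes for *Ms4a7*, *C1qb* and *C1qc*, which is 3 of 10 genes against 6.73% of all tested genes. With the arrays exchanged, 10 of 10 genes had a lower mean in *CD109-/-* skin, with a median of -0.74. None passed (adjusted p from 0.101 to 0.577, with 5.15% of all tested genes passing as lower), and 7 did not overlap, against 38.8% of all tested genes. Without both arrays, the median was -0.11, with 3 genes above 0 and 7 below, from 1 array a group. *Cd68* differed most between the settings, with a log2 fold change of 0.71 as labelled, -1.18 after the exchange and -0.47 without both.

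With the labels as deposited, the difference between DMBA and untreated skin had opposite signs in the genotypes. In *CD109-/-* skin all 10 genes had a lower mean after DMBA, with a median log2 fold change of -1.26, and in 9 of them, all but *Msr1*, both DMBA arrays lay below both untreated arrays, against 19.2% of all tested genes. The fold changes were widest for *Cd163* (-1.70), *Cd68* (-1.57) and *C1qa* (-1.56) and were -1.14 for *Cd14*, -0.75 for *Mrc1* and -0.075 for *Msr1*. None passed (adjusted p from 0.246 to 0.951, with 0.0% of all tested genes passing as lower), and 8 of 10 reached an unadjusted p under 0.05, against 4.73%. With the arrays exchanged the median was -0.62 and 4 genes did not overlap, against 21.2%, with *Mrc1* at 0.037 and *Msr1* at 0.22. Without both arrays the median was -0.90.

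In *CD109+/+* skin all 10 genes had a higher mean after DMBA without overlap, against 26.1% of all tested genes, with a median log2 fold change of 1.35. *Msr1* (2.57 ± 0.51), *Cd14* (2.32 ± 0.43), *Ms4a7* (1.66 ± 0.31), *Mrc1* (1.62 ± 0.42) and *Cd68* (1.60 ± 0.55, SE) had the larger differences, and *Csf1r* the smallest (0.57 ± 0.36, SE). None passed, with adjusted p-values of 0.165 for *Ms4a7*, 0.167 for *Cd14*, 0.184 for *Msr1* and up to 0.615 for *Csf1r*, and 0.173% of all tested genes passed as higher. An unadjusted p under 0.05 was reached by 6 of 10, against 7.38%. The size rested on the 2 arrays in doubt for most of the genes. After the exchange *Msr1* (2.28), *Cd14* (1.73) and *Ms4a7* (1.16) kept values above 1, the C1q chains were at 0.10, 0.33 and 0.12 and *Csf1r* at -0.075, with a median of 0.50 and 5 genes without overlap, against 31.8%. Without both arrays the median was 0.95 and *Msr1* and *Cd14* were at 2.19 and 2.09. In these data *Msr1* and *Cd14* were the members with the largest DMBA difference in *CD109+/+* skin under all 3 treatments of the labels.

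**Figure D3:**
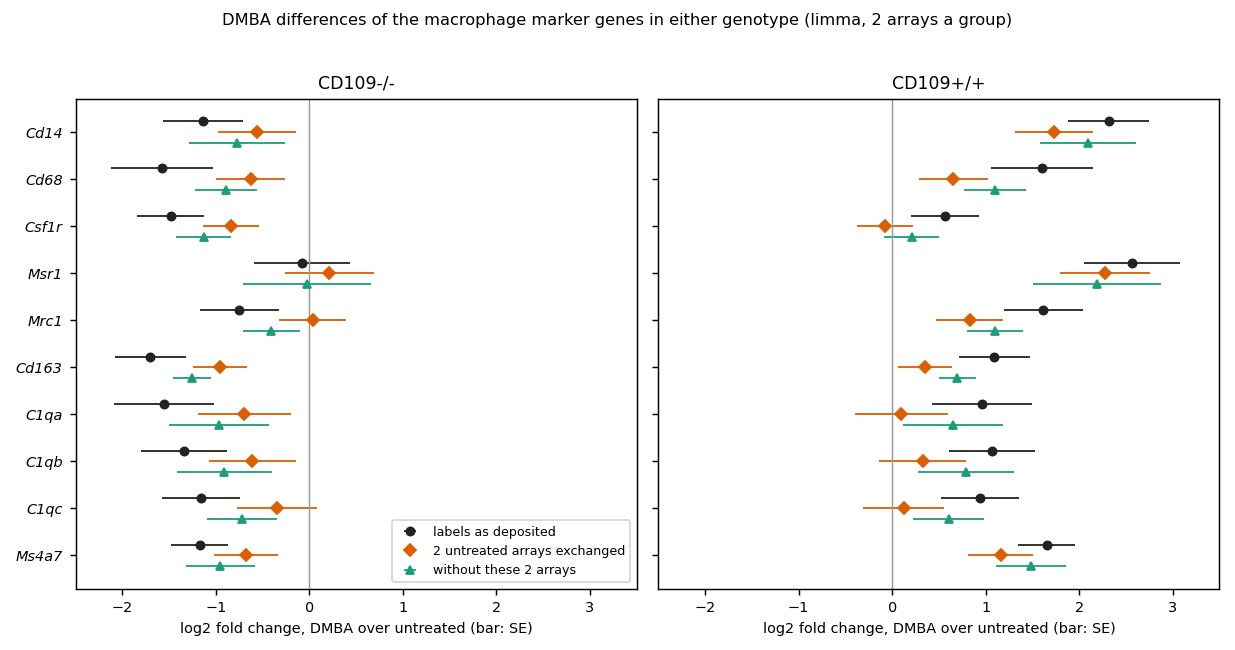
Log2 fold change of DMBA over untreated skin (horizontal axis, bars for the SE) for each macrophage marker gene in *CD109-/-* (left) and *CD109+/+* skin (right), with the labels as deposited, with the 2 untreated arrays in doubt exchanged and without these 2 arrays. With the labels as deposited all 10 genes lie below 0 in *CD109-/-* skin and above 0 in *CD109+/+* skin, and *Csf1r* and the C1q chains come near 0 in *CD109+/+* skin after the exchange.

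The difference between the DMBA effects, *CD109-/-* minus *CD109+/+*, was below 0 for all 10 genes, with a median of -2.58 on the log2 scale. It was -3.45 ± 0.61 for *Cd14*, -3.17 ± 0.77 for *Cd68* and -2.83 ± 0.43 for *Ms4a7* (SE), and between -2.79 and -2.05 for the other 7 genes. None passed (adjusted p from 0.226 to 0.278, with 0.0% of all tested genes passing as lower), and 10 of 10 reached an unadjusted p under 0.05, against 7.62%. After the exchange the median was -1.11, with adjusted p-values from 0.135 to 0.680, 4 genes reached an unadjusted p under 0.05, against 9.12%, and without both arrays it was -1.82. The comparisons after DMBA, within genotypes and of the effects share arrays and are not separate evidence. Over the average of the genotypes, whose value does not depend on how the untreated arrays are labelled, the median DMBA effect was -0.05, with 5 genes above and 5 below 0. *Msr1* had the largest, at 1.25 ± 0.36 (SE; adjusted p = 0.315), and was the only member to reach an unadjusted p under 0.05 in this direction, against 6.76% of all tested genes.

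Both *CD109-/-* DMBA arrays stood below all other 6 arrays for *Cd68*, *Csf1r*, *Cd163* and *Ms4a7*, which is 4 of the 10 genes against 9.27% of all tested genes. Both *CD109+/+* DMBA arrays stood above all other 6 for *Cd14*, *Cd68*, *Msr1*, *Ms4a7* and *Mrc1*, which is 5 of the 10 against 14.4%. For 8 of the 10 genes the order of the group means with the labels as deposited was *CD109-/-* DMBA, *CD109+/+* untreated, *CD109-/-* untreated and *CD109+/+* DMBA from low to high. In *Csf1r* the upper pair of groups, and in *Msr1* the lower 3, differed by less than the spread between their arrays.

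The spread between replicate arrays was shared by the members. Replicate 1 had the higher signal for 10 of 10 genes in *CD109-/-* DMBA skin (median difference 0.73), for 8 of 10 in *CD109+/+* DMBA skin (0.13), for 10 of 10 in the arrays labelled *CD109-/-* untreated (0.80) and for 10 of 10 in those labelled *CD109+/+* untreated (0.69). The 10 genes are therefore not 10 separate observations of a group. The *CD109+/+* DMBA arrays were the closest pair, with a mean log2 signal over the 10 genes of 3.84 and 3.74. This mean was 2.19 and 1.40 on the *CD109-/-* DMBA arrays, 3.38 and 2.60 on the arrays labelled *CD109-/-* untreated and 2.70 and 2.00 on those labelled *CD109+/+* untreated.

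In a list of 18 genes used across macrophages, 16 had a lower signal after DMBA in *CD109-/-* skin, 15 of them without overlap (36.5% of all tested genes), with a median log2 fold change of -1.75. With the labels as deposited 0 passed, and 11 passed after the exchange (10.3% of all tested genes). *Adgre1*, whose product is the surface antigen by which mouse macrophages are usually stained, had a log2 signal of 1.66 and 0.82 in *CD109-/-* skin, against 2.95 and 2.95 in *CD109+/+* skin, which is a difference of -1.71 ± 0.48 (SE; adjusted p = 0.117, or 0.0424 after the exchange). *Fcgr3*, a receptor for immunoglobulin G, had a signal of 0.89 and 0.11, against 3.17 and 3.13, with a log2 fold change of -2.65 (adjusted p = 0.0913, or 0.0253). *Lgmn*, a lysosomal protease, had a signal of 5.14 and 5.05, against 6.86 and 6.60, with a log2 fold change of -1.63 (adjusted p = 0.0850, or 0.0254). The genes above 0, named here after their values were seen, were *Itgam* and *Cx3cr1*. *Itgam*, a chain of complement receptor 3 that neutrophils also carry, was at 3.51 and 4.02 in *CD109-/-* skin, against 3.16 and 2.90 in *CD109+/+* skin, and *Cx3cr1*, the fractalkine receptor, had a log2 fold change of 0.19.

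In a list for resident dermal macrophages, 12 of 12 genes had a lower mean after DMBA in *CD109-/-* skin, 11 of them without overlap, with a median of -1.58 and 0 passing, against 5 after the exchange, beside the same 36.5% and 10.3% of all tested genes. *Vsig4*, a complement receptor of tissue macrophages, read -1.67 and -1.36 in *CD109-/-* skin, against 0.69 and 0.07 in *CD109+/+* skin (a difference of -1.90, adjusted p = 0.0998). *Stab1*, a scavenger receptor, read 2.54 and 2.49, against 3.98 and 3.93 (log2 fold change -1.44, adjusted p = 0.0997). Among 11 tested genes of monocytes and inflammatory macrophages, 10 were lower, with a median of -1.09 and 0 passing, against 3 after the exchange (10.3% of all tested genes). *Clec4e*, the receptor Mincle, was the most different of these. It read -2.92 and -3.87 in *CD109-/-* skin after DMBA, against 0.76 and 0.43 in *CD109+/+* skin, and its untreated signal lay from -4.32 to -2.88, so that the *CD109+/+* DMBA arrays stood alone. Its log2 fold change was -3.99 between the genotypes after DMBA (adjusted p = 0.0825, or 0.0109 after the exchange) and 4.34 for DMBA in *CD109+/+* skin (adjusted p = 0.0781, or 0.0113). The exception in the list, named after its value was seen, was *Arg1*, the arginase of alternatively activated macrophages, with a log2 fold change of 1.63 (adjusted p = 0.143).

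**Figure D4:**
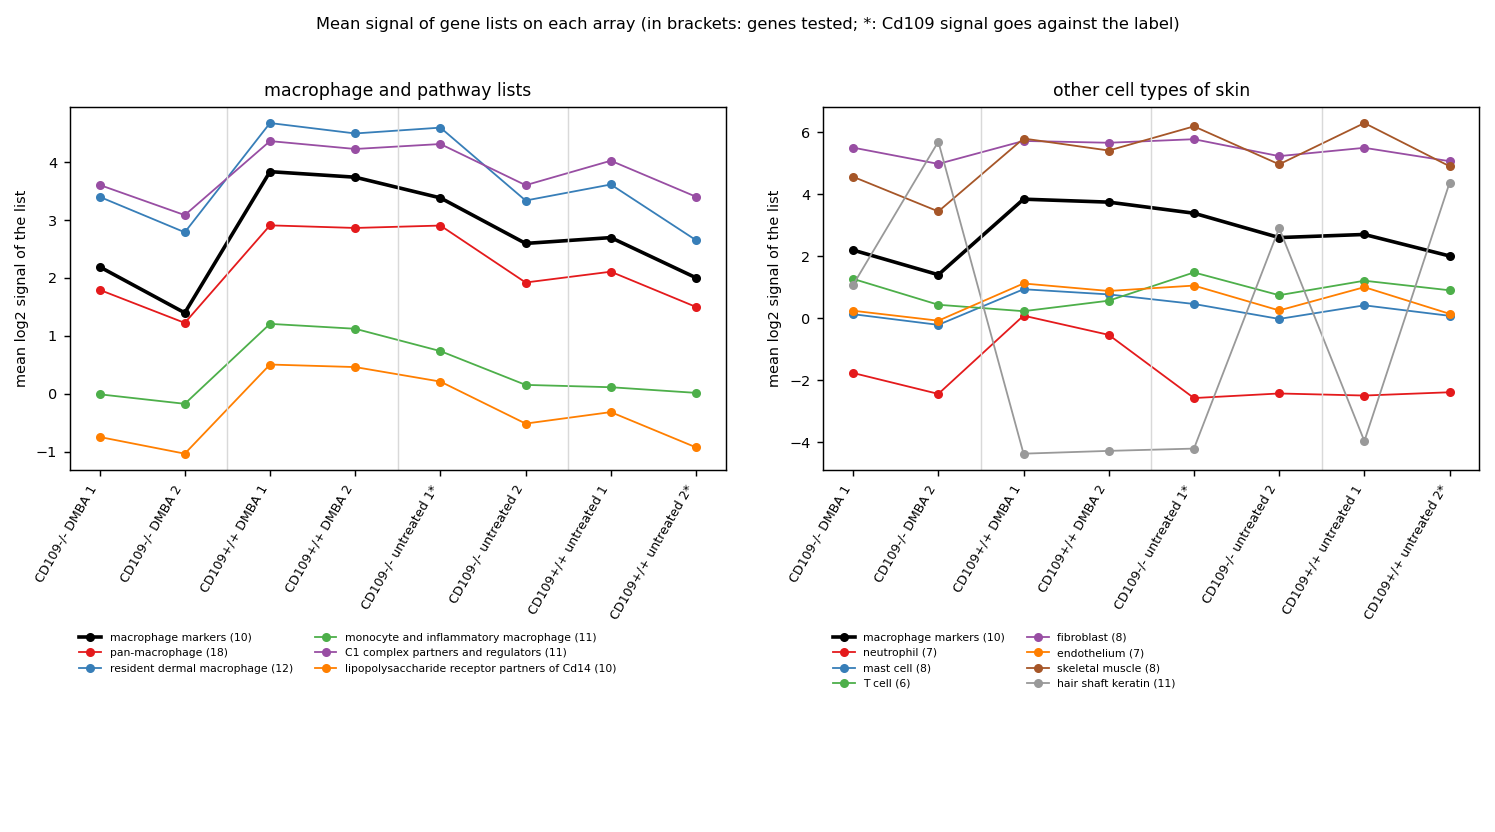
Mean log2 signal (vertical axis) of gene lists on each of the 8 arrays, with macrophage and pathway lists on the left, other cell types of skin on the right and the 10 macrophage marker genes in black on both. Lines join the arrays of a list and stand for no order in time. The macrophage lists run parallel to the members, while the hair shaft keratin list ranges from 1.07 to 5.69 on the 4 arrays low in *Cd109* and from -4.38 to -3.97 on the other 4. On these other 4 arrays some of the hair shaft keratins were not well above background.

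All 10 genes of a list of Toll-like receptors that CD14 serves, their partners and their adaptors had a lower signal in *CD109-/-* skin after DMBA, with a median of -1.49 and 0 passing, against 8 after the exchange (10.3% of all tested genes). *Tlr4*, the signalling receptor itself, read -1.29 and -1.85 in *CD109-/-* skin, against 0.01 and 0.17 in *CD109+/+* skin (a difference of -1.66 ± 0.53 SE, adjusted p = 0.134, or 0.0279). *Myd88*, the adaptor of most Toll-like receptors, read 1.57 and 1.24, against 2.53 and 2.77 (log2 fold change -1.24, adjusted p = 0.0850), and *Tlr6*, which pairs with TLR2, had a log2 fold change of -2.05 (adjusted p = 0.0998). Of 10 tested scavenger receptors other than the members, 8 were lower, with a median of -0.96 and 0 passing. After the exchange 4 passed as lower (10.3% of all tested genes) and 1 as higher (4849 of 37147 tested probes). *Scara5*, a ferritin receptor of stromal cells, had a log2 fold change of -1.61 (adjusted p = 0.112). *Marco*, a relative of *Msr1* carried by some macrophages, read -0.81 and -0.93 in *CD109-/-* skin after DMBA, against 0.34 and 0.04 in *CD109+/+* skin, and its untreated signal ranged from -0.09 to 2.11, above both *CD109-/-* DMBA arrays on all 4 untreated arrays and above both *CD109+/+* DMBA arrays on 2 of them.

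Partners and regulators of the C1 complex had a lower mean in 11 of 11 cases after DMBA in *CD109-/-* skin, with a median of -1.06 and 0 passing, against 7 after the exchange (10.3% of all tested genes). They include *Cd93*, a receptor on endothelium and myeloid cells, at 2.42 and 1.95 in *CD109-/-* skin, against 3.61 and 3.33 in *CD109+/+* skin (a difference of -1.29, adjusted p = 0.0997), and the protease gene *C1rb* (log2 fold change -1.44, adjusted p = 0.152). Of 8 genes of haemoglobin clearance, 7 were lower, with a median of -1.05 and 0 passing. After the exchange 5 passed as lower (10.3% of all tested genes) and 1 as higher (4849 of 37147 tested probes). *Hmox1*, which breaks down haem, read 3.14 and 3.02, against 4.26 and 4.16 (log2 fold change -1.13, adjusted p = 0.113), and *Blvra*, which acts after it, had a log2 fold change of -0.97 (adjusted p = 0.118). The exception was *Slc40a1*, the iron exporter ferroportin, at 1.87 and 3.19 in *CD109-/-* skin, against 0.66 and 0.56 in *CD109+/+* skin (a difference of 1.92, adjusted p = 0.171, or 0.0325 after the exchange).

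The 7 tested Ms4a genes other than *Ms4a7* all had a lower signal after DMBA in *CD109-/-* skin without overlap (36.5% of all tested genes), with a median of -2.00 and 0 passing, against 5 after the exchange (10.3% of all tested genes). *Ms4a6d*, also made by macrophages, read 0.98 and 0.11 in *CD109-/-* skin, against 3.26 and 3.42 in *CD109+/+* skin (a difference of -2.80, adjusted p = 0.0851), and *Ms4a6c* had a log2 fold change of -2.50 (adjusted p = 0.0984). The list also holds *Ms4a2*, a gene of mast cells. Among C-type lectins 3 of 5 could be tested. *Clec4d*, a myeloid lectin that pairs with Mincle, read -1.42 and -1.86 in *CD109-/-* skin, against 3.37 and 2.91 in *CD109+/+* skin (a difference of -4.78, adjusted p = 0.0803, or 0.0108 after the exchange), and *Mrc2*, the mannose receptor relative of fibroblasts, had a log2 fold change of -0.70 (adjusted p = 0.294).

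The mean signal of several lists for other cell types moved on the same arrays. The mean log2 signal of 7 tested neutrophil genes was -1.77 and -2.45 on the *CD109-/-* DMBA arrays, against 0.08 and -0.54 on the *CD109+/+* DMBA arrays, and from -2.58 to -2.39 in untreated skin. For 8 mast cell genes it was 0.13 and -0.22, against 0.93 and 0.76, for 7 endothelial genes 0.24 and -0.08, against 1.12 and 0.87, and for 8 adipocyte genes 3.30 and 2.67, against 4.06 and 3.99. Skeletal muscle genes (8 tested) were at 4.56 and 3.44, against 5.79 and 5.41, and fibroblast genes (8) at 5.50 and 4.97, against 5.71 and 5.66. Some genes, named after their values were seen, went against these means without overlap. For fibroblasts they were *Col1a1* (7.27 and 7.13, against 6.80 and 6.68) and *Col1a2* (8.53 and 8.15, against 8.09 and 7.97). The others were endothelial *Kdr* (3.40 and 3.56, against 3.12 and 2.84), neutrophil *Csf3r* (6.32 and 6.83, against 5.95 and 5.88) and mast cell *Kit* (0.54 and 1.26, against -0.93 and -0.64). T cell genes (6) went the other way, at 1.26 and 0.43 in *CD109-/-* skin after DMBA, against 0.22 and 0.56 in *CD109+/+* skin, with overlap. Singly, *Cd3e* (2.05 and 1.32, against 0.71 and 0.94) and *Cd3d* (1.24 and -0.14, against -0.83 and -0.46) were higher without overlap. *Cd4* was lower without overlap (1.63 and 1.73, against 1.94 and 1.94), and the remaining T cell genes overlapped. Dendritic and Langerhans cell genes (9) overlapped too, at 0.29 and -0.52, against -0.42 and 0.20, and so did epidermal genes (7), at 5.61 and 5.14, against 5.11 and 5.76. Of the epidermal genes, *Krt14*, a keratin of the basal layer, read 6.32 and 5.88, against 7.52 and 7.42. Also without overlap, and named after their values were seen, *Krt5* was lower (7.85 and 7.81, against 8.06 and 8.17) and *Ivl* higher (1.87 and 2.06, against 0.76 and 1.79). Erythroid genes (5) were at 3.33 and 2.89, against 2.79 and 2.84.

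Hair shaft keratins, which are made while a hair grows, varied more than any other list. The mean log2 signal of the 11 tested genes was 1.07 and 5.69 on the *CD109-/-* DMBA arrays, against -4.38 and -4.29 on the *CD109+/+* DMBA arrays, -4.21 and 2.90 on the arrays labelled *CD109-/-* untreated and -3.97 and 4.36 on those labelled *CD109+/+* untreated. Of the 11 genes, 7 were well above background on all 8 arrays. On the arrays with high *Cd109* signal, *Krt33b* (-8.72 to -8.20) and *Krt34* (-8.37 to -7.81) were not, so the means there include background readings. The 4 arrays with low *Cd109* signal held 1.07 to 5.69 and the 4 with high signal -4.38 to -3.97. The mean of the 10 macrophage genes divided in the opposite direction, at 1.40 to 2.60 on the arrays low in *Cd109* and 2.70 to 3.84 on the others. Singly, *Msr1*, *Ms4a7*, *C1qb* and *C1qc* overlapped. The share of all tested genes that divided without overlap in this way is not given here. The division is therefore a description and not a result about these genes. The mast cell, endothelial, skeletal muscle and adipocyte means divided like that of the macrophage genes. In each of the 4 groups, the array with the higher hair shaft keratin signal had the lower mean signal of the macrophage genes, by a small margin in *CD109+/+* DMBA skin. The part of the hair shaft keratins, of the other cell types and of the intensity of the arrays in the differences between the genotypes was not tested.

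The genes whose signal ran most like that of the C1q chains, members left out, were found by the root mean square difference of centred log2 signals over the 8 arrays, among 15293 genes well above background on all of them. For the mean of *C1qa*, *C1qb* and *C1qc* they were *Adgre1* (0.101), *Cyth4* (0.104), *Ifi204* (0.109), *Vsir* (0.121) and *Tmem106a* (0.146), against a standard deviation of 0.728 of the C1q mean over the arrays. The closest member outside C1q was *Csf1r* (0.213, rank 60 of the 15293 genes). Then came *Cd163* (0.318, rank 383), *Mrc1* (0.365, rank 633), *Ms4a7* (0.373, rank 674) and *Cd68* (0.383, rank 731). The farthest were *Cd14* (0.626, rank 3979) and *Msr1* (0.876, rank 10497), where *Msr1* lay beyond the standard deviation of the C1q mean. The measure is not scaled, so a wider range of signal also adds to it. For *Cd14*, with a standard deviation of 1.13, the most like genes were *Klk1* (0.187), *Klk1b5* (0.195), *C130050O18Rik* (0.200), *Fpr2* (0.216) and *Fpr1* (0.226), where *Fpr1* and *Fpr2* encode formyl peptide receptors of phagocytes. *Ms4a7* was the closest member to *Cd14* (0.315), then *Cd68* (0.406), *Msr1* (0.485) and *Mrc1* (0.501). The members thus ran from a C1q and *Csf1r* pattern, in which an untreated array reached the level of the *CD109+/+* DMBA arrays, to *Cd14* and *Msr1*, the farthest from it. In *Cd14* and *Msr1*, as in *Cd68*, *Ms4a7* and *Mrc1*, the *CD109+/+* DMBA arrays stood above all other 6. These are descriptions over 8 arrays of 1 slide, on which all of these genes were measured together.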

How the data were processed

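Whole skin RNA, labelled with 1 dye, was hybridized by the authors to Agilent mouse arrays and read with Agilent Feature Extraction 11.5.1.1 (file headers). The authors deposited each spot as a linear intensity that the software had corrected for background and for trends within the array, without normalization between arrays. A second deposited table holds the same intensities times 1 constant per array. Control spots and spots marked as outliers were left out and spots of a probe averaged, which left 223 probes without a value. Deposited intensities were divided by the 75th percentile of their array and converted to log2. RefSeq accessions named 28026 of 29796 such probes (94.1%).

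Tests used limma 3.58.1 (R 4.3.3), fitting group means to all 8 arrays with a moderated variance, in the 36921 probes that some group had well above background on both of its arrays. A probe passed at a two-sided Benjamini-Hochberg adjusted p under 0.05 over all of them. Gene counts use the brightest tested probe of a gene. The fit was tested on simulated data first.

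The members, the related gene lists and the alternatives were chosen with earlier results of these data known. All members are described. From each related list, the genes named are up to 4 that passed in the comparison described or the 2 with the smallest p, with *Adgre1*, *Csf1*, *Il34*, *Csf2*, *Tlr4* and *Krt14* always.

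Alternatives were the value table, quantile normalization, median centring, a normexp correction (offset 50, on median intensities), other filters on dim probes and outlier spots, the mean of a gene's probes, a trend and robust variance, only the arrays compared, the methods' t-test, the replicate number as a block, leaving out each array, and exchanging or leaving out the 2 untreated arrays in doubt. Other assays of the study are not analysed here.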

Additional observations from a re-analysis of the deposited data

Results flagged for a closer look

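In 9 of the 10 macrophage genes, every DMBA array differed from every untreated array in opposite directions in the genotypes, lower in *CD109-/-* and higher in *CD109+/+* skin, with the labels as deposited. Of all tested genes 10.6% were opposite in this way and 5.58% in this direction. The difference of the DMBA effects, *CD109-/-* minus *CD109+/+*, was tested by limma's interaction term and passed for none of the 9. On the log2 scale it was -3.45 ± 0.61 for *Cd14* (adjusted p = 0.251), -3.17 ± 0.77 for *Cd68* (0.272), -2.83 ± 0.43 for *Ms4a7* (0.226), -2.79 ± 0.53 for *Cd163* (0.253) and -2.52 ± 0.75 for *C1qa* (0.278, all SE). It was -2.41 for *C1qb*, -2.36 for *Mrc1*, -2.10 for *C1qc* and -2.05 for *Csf1r*, each with an adjusted p of 0.272. *Msr1* was the member left out, since its *CD109-/-* arrays overlapped between DMBA and untreated skin. These values rest on the 2 untreated arrays whose *Cd109* signal goes against the label, and what the pattern rests on beyond them was not tested.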

How the results depend on the processing

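After DMBA, every member was lower in *CD109-/-* skin under all alternatives run, and with the labels as deposited 0 passed except under 2 of them: the methods' t-test without adjustment (6 lower, with 10.3% of all tested genes lower) and the replicate number as a block (7 lower, with *Msr1*, *Mrc1* and *C1qa* not among them, and 2.9% of all tested genes lower). The median was -1.85 with quantile normalization, -1.74 with the normexp correction and -2.08 with median centring, which shifted the median of all genes by -0.16. Exchanging the untreated arrays in doubt gave 7 lower. Correlations of the deviations of samples with the same number ran from -0.08 to 0.73, so the numbers were not taken to pair the samples. The methods' t-test without adjustment also passed 10 members as lower for the difference of the DMBA effects (6.92% of all tested genes), 3 as higher for DMBA in *CD109+/+* skin (7.27%) and 1 as higher for DMBA over both genotypes (7.45%), and 0 after Benjamini-Hochberg adjustment.

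The medians that rest on the untreated arrays moved with the exchange: to -0.74 for the genotypes in untreated skin, -1.11 for the difference of the DMBA effects, 0.50 for DMBA in *CD109+/+* skin and -0.62 for DMBA in *CD109-/-* skin. Without both arrays the median was -0.11 for the genotypes in untreated skin and -1.82 for the difference of the DMBA effects. Leaving out each array in turn gave -3.02 to -2.02 for the difference of the DMBA effects and 0.22 to 1.07 for untreated skin.

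For the genotypes in untreated skin, the sign turned after the exchange in all 10 genes: -0.59 for *Cd14*, -1.18 for *Cd68*, -0.43 for *Msr1*, -0.39 for *Ms4a7*, -0.71 for *Csf1r*, -0.86 for *Mrc1*, -0.84 for *Cd163*, -0.91 for *C1qa*, -0.71 for *C1qb* and -0.78 for *C1qc*. Without both arrays it turned for *Cd14* (-0.013), *Cd68* (-0.47), *Msr1* (-0.29), *Csf1r* (-0.14), *Mrc1* (-0.14), *Cd163* (-0.19) and *C1qa* (-0.087). After the exchange it also turned for *Csf1r* with DMBA in *CD109+/+* skin (-0.075) and for *Mrc1* (0.037) and *Msr1* (0.22) with DMBA in *CD109-/-* skin, the last with the normexp correction too (0.071). Values near 0 turned with single arrays: DMBA over both genotypes ran from -0.33 to 0.36 for *Cd68*, -0.41 to 0.13 for *C1qb* and -0.33 to 0.11 for *C1qc*, and *Msr1* from -0.23 to 0.53 for the genotypes in untreated skin and from -0.80 to 0.65 for DMBA in *CD109-/-* skin. For *Cd68* DMBA over both genotypes was -0.023 with the value table, -0.020 with the normexp correction and -0.038 with quantile normalization. The cause of these turns was not tested beyond the arrays named. Signal over background did not limit the members, which were well above background on all arrays.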
